A study of Mus musculus with 4 samples.

Results

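The 32 genes of the Wnt and β-catenin pathway described here were chosen by name from 21851 protein-coding genes, and their RNA polymerase II (Pol II) occupancy was read from peak lists of brain endothelial cells (ECs). They comprise 2 ligands, 10 receptors and co-receptors, 7 genes of signal relay and the destruction complex, 4 nuclear factors, 6 feedback inhibitors and 3 other targets. A promoter peak is a peak that overlaps a window reaching 1500 bp to each side of any protein-coding transcription start site (TSS) of the gene, and a gene body peak overlaps the rest of the gene. The share of the 32 genes with each kind of peak was set, library by library, beside that of 200 protein-coding genes nearest in length to each member.

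Pol II chromatin immunoprecipitation sequencing was compared between old WT Cre mice (20 to 23 mo) and young EC-K4KO mice (4 to 6 mo), with 2 libraries per group. EC-K4KO mice carry floxed Klf4 and the tamoxifen-inducible CDH5-CreERT2 driver, which is active in ECs, whereas WT Cre mice carry the driver alone. Per the study, Cre was induced with tamoxifen at 8 wk, control and knockout groups were treated alike, and the ECs were isolated by flow sorting, which would remove other cell types. Genotype and age differed together between these groups, so their parts cannot be told apart. The labels do not say whether the replicates came from separate animals, so p-values measure the spread between these libraries alone, which may be technical.

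In canonical Wnt signaling, a Wnt ligand bridges a Frizzled receptor and an Lrp co-receptor, the destruction complex that degrades β-catenin is inhibited, and β-catenin joins TCF/LEF factors on DNA. In the brain endothelium, Wnt7a and Wnt7b act through Reck and Adgra2 (GPR124), and Norrin acts through Fzd4, Lrp5 and Tspan12. Both inputs are known to be needed for the formation and upkeep of the blood-brain barrier (BBB).

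The 4 lists differed greatly in length. In the order old WT Cre replicate 1, old WT Cre replicate 2, young EC-K4KO replicate 1, young EC-K4KO replicate 2, which is kept below wherever 4 values are given, the caller counted 65734178, 27455452, 35227929 and 22705175 fragments and called 78851, 39674, 35638 and 235591 peaks. Young EC-K4KO replicate 2, the library with the fewest fragments, had the most peaks. Its list therefore stands apart, and group values are given with and without it. The smallest called pileup, the fragments stacked at a summit, was 13, 8, 9 and 7, so weaker occupancy was not detectable.

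Of 14 endothelial markers used to check the labelled cell type, 4, 5, 0 and 7 (28.6%, 35.7%, 0% and 50.0%) had a promoter peak, beside 25.6%, 24.5%, 10.6% and 67.5% of all protein-coding genes. Kdr, Flt1 and Cdh5 each had a peak there in every library except young EC-K4KO replicate 1, and 6 of the 14 had none in any library. For other brain cells, the counts were 2, 1, 1 and 6 of 8 pericyte, 2, 1, 1 and 4 of 7 astrocyte, 1, 2, 1 and 6 of 8 neuron, 3, 1, 0 and 5 of 7 microglia and 1, 0, 1 and 6 of 7 oligodendrocyte markers. Gene body peaks were found at 11, 4, 8 and 10 of the 14 endothelial markers (78.6%, 28.6%, 57.1% and 71.4%), against 61.7%, 44.9%, 37.3% and 79.3% of genes matched to them in length. Body peaks at the markers of other cells numbered 5, 5, 3 and 6 of 8 pericyte, 5, 3, 3 and 6 of 7 astrocyte, 6, 6, 3 and 8 of 8 neuron, 5, 2, 3 and 6 of 7 microglia and 3, 4, 1 and 5 of 7 oligodendrocyte genes. In old WT Cre replicate 2, where the endothelial share was below its reference, those of pericyte (62.5% against 41.2%), neuron (75.0% against 59.6%) and oligodendrocyte markers (57.1% against 29.4%) were above theirs, and those of astrocyte (42.9% against 45.2%) and microglia markers (28.6% against 41.1%) below. The endothelial markers thus lay above the reference in some libraries and below it in others, and not in the same ones for promoters and bodies, so the labelled cell type was not settled by these peaks. The part of other cell types in the results below was not tested. In bulk chromatin, fewer cells with Pol II at a gene and less Pol II per cell cannot be told apart.

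Within the 32 genes and their promoters, 10 segments lay under peaks of 3 libraries, none lay under peaks of all 4, and young EC-K4KO replicate 2 contributed to each of the 10. The segments of Reck, Ctnnb1, Lef1, Tcf7l2 and Axin2 are shown because they are the stretches of these genes where the peak lists coincide most. Each is written 5′ to 3′ on the plus strand of GRCm38 (mm10), which is the strand of all 5 genes, with the bases under peaks of 3 libraries in capitals and the flanking reference sequence in lower case.
Reck, chr4:43875266-43875450, upstream of the gene: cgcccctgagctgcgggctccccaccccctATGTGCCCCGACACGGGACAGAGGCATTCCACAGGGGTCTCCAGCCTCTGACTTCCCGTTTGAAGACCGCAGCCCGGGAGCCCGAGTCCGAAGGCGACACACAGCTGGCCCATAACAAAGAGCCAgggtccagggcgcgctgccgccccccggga
Ctnnb1, chr9:120933101-120933260, intron: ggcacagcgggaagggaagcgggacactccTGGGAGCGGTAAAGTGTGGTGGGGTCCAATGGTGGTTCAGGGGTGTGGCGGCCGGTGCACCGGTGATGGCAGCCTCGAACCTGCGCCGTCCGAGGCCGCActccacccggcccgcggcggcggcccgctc
Lef1, chr3:131112172-131112349, intron: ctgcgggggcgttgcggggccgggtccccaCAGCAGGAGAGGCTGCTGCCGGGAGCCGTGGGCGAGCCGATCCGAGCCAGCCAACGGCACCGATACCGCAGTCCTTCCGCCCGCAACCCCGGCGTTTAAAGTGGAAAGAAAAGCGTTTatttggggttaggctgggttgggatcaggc
Tcf7l2, chr19:55742507-55742713, intron: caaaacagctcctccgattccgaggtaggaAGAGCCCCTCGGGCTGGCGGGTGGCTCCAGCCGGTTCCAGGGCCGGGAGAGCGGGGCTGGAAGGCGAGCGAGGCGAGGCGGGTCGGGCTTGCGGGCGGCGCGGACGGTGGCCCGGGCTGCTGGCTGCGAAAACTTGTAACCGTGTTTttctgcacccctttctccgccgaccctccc
Axin2, chr11:108948713-108948918, intron: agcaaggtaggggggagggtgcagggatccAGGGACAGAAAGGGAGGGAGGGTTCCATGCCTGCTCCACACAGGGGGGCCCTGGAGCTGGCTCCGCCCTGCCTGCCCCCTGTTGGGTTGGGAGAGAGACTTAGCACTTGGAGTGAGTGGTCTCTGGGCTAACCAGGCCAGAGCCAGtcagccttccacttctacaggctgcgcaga

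The middle of the shared Reck segment lay 172 bp upstream of its TSS, and this segment was the only 1 of the 5 printed that both young EC-K4KO libraries shared, together with old WT Cre replicate 2. Those of Ctnnb1, Lef1, Tcf7l2 and Axin2 were shared by every library except young EC-K4KO replicate 1. Relative to the nearest TSS, the Ctnnb1 and Lef1 segments lay 220 and 537 bp upstream, within introns of longer transcripts, and the Tcf7l2 segment lay 268 bp downstream. The Axin2 segment lay 25634 bp downstream of the nearest TSS, deep in the gene. The others were in the coding exon of Fzd1, in exons of Fzd4 (a pair of segments), in Apc, and in an intron of Tcf7l2, 17638 bp from its nearest TSS.

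Promoter peaks were found more often at the Wnt pathway genes than at length-matched genes in each library, by a margin that ranged from 3.23 to 17.8 percentage points. The smallest margin, in young EC-K4KO replicate 1, was about 1 gene and thus near the reference. In old WT Cre replicate 1, 14 of 32 members (43.8%) had a promoter peak, against 28.8% of length-matched and 25.6% of all protein-coding genes. For old WT Cre replicate 2, the values were 13 members (40.6%), 28.3% and 24.5%. For young EC-K4KO replicate 1, these were 5 members (15.6%), 12.4% and 10.6%. In young EC-K4KO replicate 2, 29 members (90.6%) had a promoter peak, against 72.8% and 67.5%. The members' shares followed the rank of the all-gene shares across the 4 libraries, as the plot of shares by library shows.

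**Figure D1:**
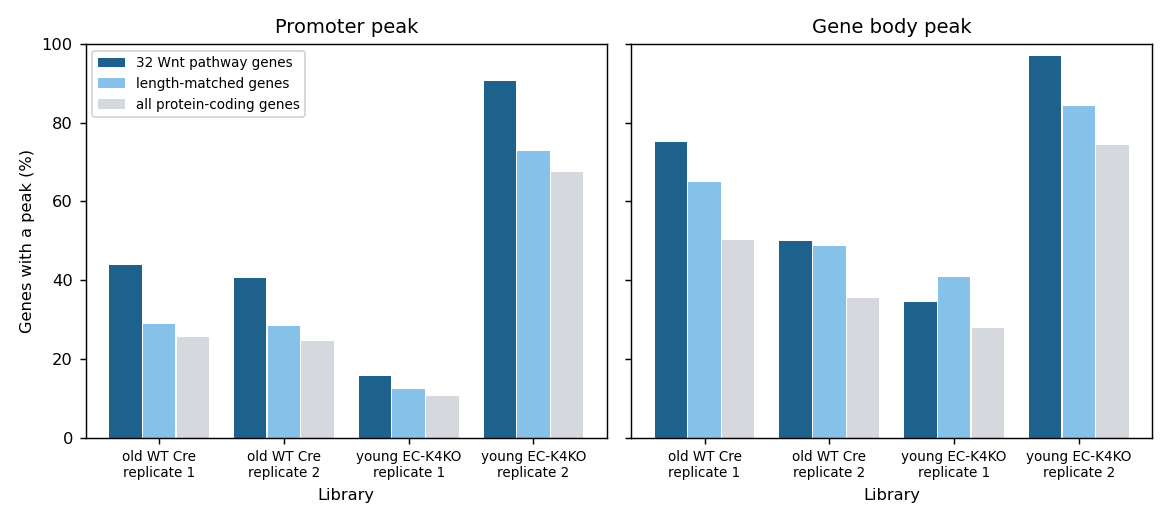
Percent of genes with a promoter peak (left) or a gene body peak (right) in each library, for the 32 Wnt pathway genes, the genes matched to them in length and all protein-coding genes. The members' promoter bars run from 15.6% in young EC-K4KO replicate 1 to 90.6% in young EC-K4KO replicate 2, and each is above the matched bar.

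Across groups, the number of members with a promoter peak was 13.5 ± 0.707 (SD, n = 2) over the old WT Cre libraries and 17.0 ± 17.0 over the young EC-K4KO libraries, a difference of 3.5 with an exact two-sided permutation p of 1.0. Over 4 libraries this test allows no p below 0.3333. The old WT Cre values lay between those of the young EC-K4KO libraries, so the groups overlapped. The difference turned to -8.5 without young EC-K4KO replicate 2 and was 15.5 without young EC-K4KO replicate 1. The margin over length-matched genes was 13.6 ± 1.80 points over the old WT Cre libraries and 10.5 ± 10.3 points over the young EC-K4KO libraries (difference -3.10, exact permutation p = 1.0), and this difference turned to 4.20 points without young EC-K4KO replicate 1 and was -10.4 points without young EC-K4KO replicate 2, -1.83 without old WT Cre replicate 1 and -4.38 without old WT Cre replicate 2.

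The margin of old WT Cre replicate 1 turned negative with lists of equal length and with a fold enrichment of at least 4, and was smaller but positive with −log10 q of at least 5 and with a window of 500 bp. With each list cut to its 35638 peaks of lowest q-value, 4, 13, 5 and 14 members kept a promoter peak, and the margins were -0.938, 14.8, 3.23 and 12.1 points. With a fold enrichment of at least 4, the margin of old WT Cre replicate 1 was -0.859 points, and with a window of 500 bp it was 0.578 points. With −log10 q of at least 5, 6, 8, 3 and 24 members kept a promoter peak, against 15.1%, 13.4%, 3.33% and 57.2% of all genes, and the margins over length-matched genes were 1.72, 9.78, 5.52 and 11.9 points. Lef1 and Apcdd1 kept theirs in both old WT Cre libraries, and Fzd4, Fzd8 and Tnfrsf19 in both young EC-K4KO libraries. Lef1 and Apcdd1 also kept theirs in young EC-K4KO replicate 2, and Fzd4 and Fzd8 in old WT Cre replicate 2. The share of all genes that did so in both libraries of a group is not given, so these genes are not read as particular to a group.

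Promoter base composition moved with these shares. The GC content of the 300 bases around the most 5′ TSS had a median of 68.3% in the members, 58.4% in length-matched genes and 55.7% in all genes, and 19 of 32 members fell in the highest of 5 classes of GC content, each holding about as many genes as the next. Across all genes, the share with a promoter peak was 13.2%, 9.14%, 6.77% and 33.8% in the lowest class and 32.8%, 39.1%, 14.3% and 89.1% in the highest. Against genes matched in both length and promoter GC content, the members' margins were 12.2, 6.11, 2.38 and 6.13 points in the 4 libraries. The margin was thus smaller in each library than against genes matched in length alone.

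**Figure D2:**
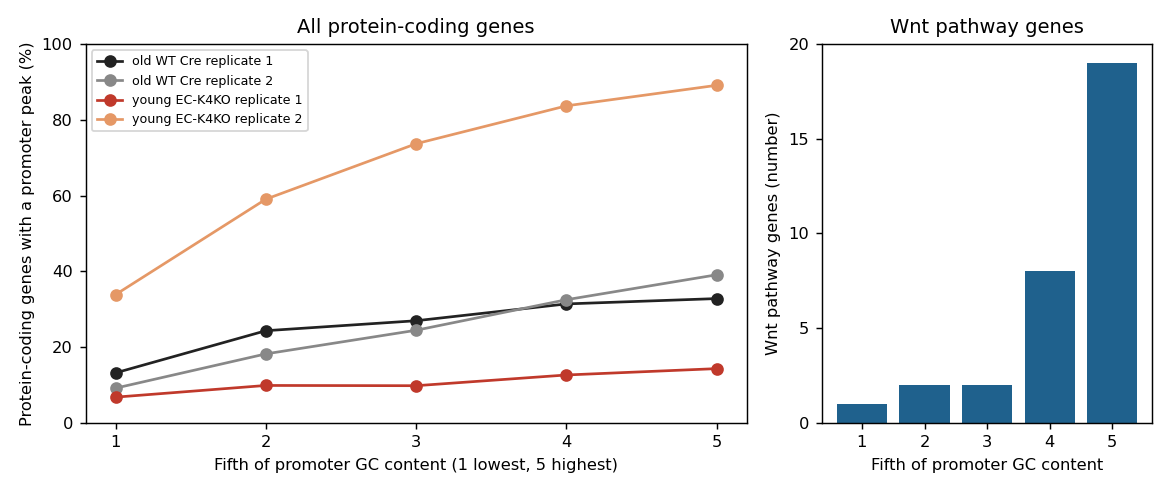
Left, percent of all protein-coding genes with a promoter peak in each of 5 classes of promoter GC content, by library; right, number of the 32 Wnt pathway genes in each class. In the highest class lie 19 of the 32 genes, and there the share of all genes reaches 89.1% in young EC-K4KO replicate 2.

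Reck and Fzd4 were the 2 members with a promoter peak in all 4 libraries (6.25% of members, against 2.22% of all genes), a count that fell to 0 with −log10 q of at least 5, with a fold enrichment of at least 4 and with lists of equal length. Promoter peaks in at least 3 libraries were found at 10 members, against 13.1% of all genes. Members with a promoter peak in the old WT Cre pair numbered 7 (Apc, Apcdd1, Ctnnb1, Fzd4, Lef1, Reck and Tcf7l2), against 10.1% of genes. Those in the young EC-K4KO pair numbered 5 (Fzd4, Fzd8, Gsk3b, Reck and Tnfrsf19), against 9.13% of genes. No member had a promoter peak in both old WT Cre libraries and neither young EC-K4KO library (0.787% of all genes), and none had the opposite pattern (3.1% of all genes). At these shares of all genes, a count of 0 among 32 is near the background. A promoter peak in young EC-K4KO replicate 2 alone was found at 11 members, against 30.6% of all genes. Among the 10 members with a promoter peak in at least 3 libraries, the windows of Apc, Apcdd1, Lef1 and Tnfrsf19 also hold the TSS of a gene outside the protein-coding set, and peaks there cannot be assigned to either gene. The same holds for Wnt7a, Wnt7b, Fzd6, Tspan12, Dvl3, Notum and Rnf43 among the other members.

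**Figure D3:**
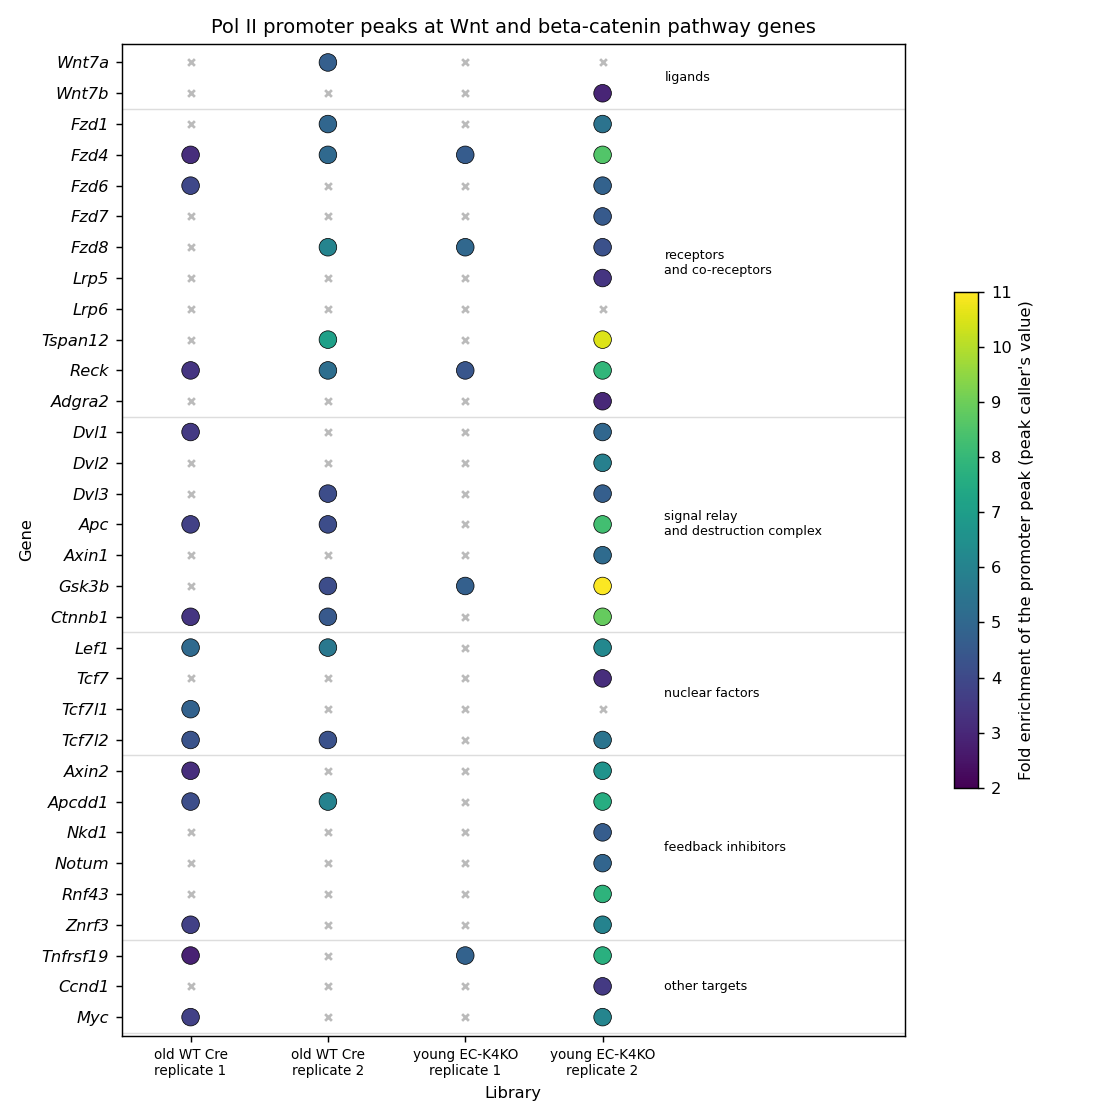
Promoter peaks of the 32 Wnt pathway genes (rows, by role) in the 4 libraries (columns); filled circles are coloured by the fold enrichment of the strongest promoter peak and crosses mark its absence. Reck and Fzd4 have a circle in all 4 columns (none of the 32 does under any of the 3 stricter settings on peak strength), Lrp6 has none, and 11 genes have a circle in young EC-K4KO replicate 2 alone.

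The counts by role that follow are small and are read against the shares of all genes with a promoter peak, 25.6%, 24.5%, 10.6% and 67.5%. Among the receptors and co-receptors, 3, 5, 3 and 9 of 10 had a promoter peak (30%, 50.0%, 30% and 90.0%), against 26.9%, 26.7%, 10.8% and 70.0% of genes matched to them in length. Fold enrichment is the caller's ratio of the pileup at a summit to the background of its own library, and where a promoter held several peaks the value of the strongest is given. For Fzd4, the Frizzled receptor of Norrin, it was 3.19, 5.03, 4.59 and 8.57, at summits 143, 298 and 925 bp downstream and 257 bp upstream of the TSS. For Reck, the GPI-anchored protein that binds Wnt7, it was 3.38, 5.22, 4.43 and 7.91, at summits 512 bp downstream and 205, 210 and 228 bp upstream. The Reck summits of 3 libraries thus lay within the segment printed above, whereas that of old WT Cre replicate 1 lay inside the gene. In fragments, the pileup was 16, 14, 17 and 36 at Fzd4 and 17, 13, 15 and 24 at Reck. In old WT Cre replicate 1 these were close to the smallest called pileup of 13, whereas those of young EC-K4KO replicate 2 were well above its smallest, 7.

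Fzd8, another Frizzled receptor, had promoter peaks in old WT Cre replicate 2 and both young EC-K4KO libraries, with fold enrichments of 6.06, 4.99 and 4.25. Tspan12, the tetraspanin that enhances Norrin signaling, had promoter peaks in old WT Cre replicate 2 (7.09-fold) and in young EC-K4KO replicate 2 (10.5-fold). Both were above the medians over all peaks of their own libraries, 4.85 and 4.79. Fzd1 and Fzd6 each had a promoter peak in young EC-K4KO replicate 2 and in 1 old WT Cre library. Fzd7, Lrp5 and Adgra2 had promoter peaks in young EC-K4KO replicate 2 alone. Lrp6, the co-receptor that is phosphorylated upon Wnt binding, had none in any library but had gene body peaks in all 4, which numbered 3, 1, 1 and 12.

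The ligands are made mainly by neural and glial cells in brain. Wnt7a had a promoter peak in old WT Cre replicate 2 alone (4.69-fold) and Wnt7b in young EC-K4KO replicate 2 alone (2.95-fold). The summits lay 1382 and 1005 bp downstream of the nearest TSS. Wnt7b had no peak of either kind in the other 3 libraries.

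Of the 7 genes of signal relay and the destruction complex, 3, 4, 1 and 7 had a promoter peak (42.9%, 57.1%, 14.3% and 100%), against 29.9%, 27.6%, 11.5% and 72.7% of genes of like length. Ctnnb1, which encodes β-catenin, had a promoter peak in each library but young EC-K4KO replicate 1 (3.38-, 4.48- and 8.87-fold), with summits 334, 107 and 146 bp upstream of the TSS. Apc, the scaffold of the destruction complex, was occupied in the same 3 libraries, at 3.76-, 4.10- and 8.29-fold. Gsk3b, the kinase that marks β-catenin for degradation, had a promoter peak in old WT Cre replicate 2 and both young EC-K4KO libraries, at 4.10-, 4.72- and 10.9-fold, the last being the highest value of any member promoter peak. It was also the only gene of this role with a promoter peak in young EC-K4KO replicate 1. Its summits lay 492, 408 and 365 bp upstream of the nearest of its TSS, but the peaks of old WT Cre replicate 2 and young EC-K4KO replicate 1 sat at different TSS. The Dishevelled genes Dvl1, Dvl2 and Dvl3, which relay the signal from Frizzled, each had a promoter peak in young EC-K4KO replicate 2. Dvl1 also had a promoter peak in old WT Cre replicate 1 and Dvl3 in old WT Cre replicate 2, whereas Dvl2 had none elsewhere. Axin1, the limiting scaffold of the complex, likewise had a promoter peak in young EC-K4KO replicate 2 alone, but it had body peaks in both old WT Cre libraries as well.

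Among the 4 nuclear factors, 3, 2, 0 and 3 had a promoter peak (75.0%, 50.0%, 0% and 75.0%), against 35.9%, 32.9%, 17.8% and 80.8% of length-matched genes. They lay above both references in the old WT Cre libraries. In the young EC-K4KO libraries they were less than 1 gene below the length-matched share, and in young EC-K4KO replicate 2 above the 67.5% of all genes. With 4 genes, no contrast between the groups is read from this. Lef1, a TCF/LEF factor that marks Wnt-responsive brain ECs, had 2, 2, 0 and 2 promoter peaks, with a highest fold enrichment of 5.06, 5.61 and 6.20 in the 3 libraries that had any. The strongest old WT Cre summits lay 728 and 671 bp downstream of a TSS, and that of young EC-K4KO replicate 2 lay 281 bp upstream. Tcf7l2 had 3, 1, 0 and 4 promoter peaks, at up to 4.32-, 4.28- and 5.45-fold. The gene is the longest of the members, at 191.8 kb, and has 9 annotated TSS. Tcf7l1, known mainly as a repressor, had a promoter peak in old WT Cre replicate 1 alone (4.78-fold), and Tcf7, which encodes TCF1, had a promoter peak in young EC-K4KO replicate 2 alone (3.17-fold).

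The feedback inhibitors are themselves induced by β-catenin and are often read as a sign of pathway activity. A promoter peak was found at 3, 1, 0 and 6 of the 6 (50.0%, 16.7%, 0% and 100%), against 29.0%, 30.3%, 13.7% and 75.3% of length-matched genes. Axin2, the most general target, had promoter peaks in old WT Cre replicate 1 (3.16-fold, 683 bp upstream) and in young EC-K4KO replicate 2 (6.62-fold, 389 bp downstream). Apcdd1, a membrane inhibitor of Wnt receptors that is enriched in brain ECs, had promoter peaks in each library but young EC-K4KO replicate 1 (4.13-, 5.97- and 7.60-fold). The Apcdd1 summits of both replicates numbered 2 lay close together, at 462 and 467 bp downstream. Znrf3, a ubiquitin ligase that removes Frizzled from the membrane, had promoter peaks in old WT Cre replicate 1 (3.76-fold) and young EC-K4KO replicate 2 (6.01-fold). Its homolog Rnf43 (7.84-fold), Nkd1, which binds Dishevelled (4.63-fold), and Notum, which removes the lipid of Wnt (4.90-fold), had promoter peaks in young EC-K4KO replicate 2 alone. None of the 6 had a promoter peak in young EC-K4KO replicate 1, where 13.7% of genes matched to them in length and 10.6% of all genes did.

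Of the other targets, Tnfrsf19, a TNF receptor family member expressed at the BBB, had a promoter peak in old WT Cre replicate 1 and both young EC-K4KO libraries, at 2.82-, 4.79- and 7.70-fold. Its summit in old WT Cre replicate 1 lay 1570 bp from the nearest TSS, outside the window, which the peak itself overlaps. Myc, a transcription factor of cell growth, had promoter peaks in old WT Cre replicate 1 (3.76-fold) and young EC-K4KO replicate 2 (6.11-fold), and Ccnd1, which encodes cyclin D1, had a promoter peak in young EC-K4KO replicate 2 alone (3.53-fold), with its summit 1636 bp upstream and also outside the window.

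The strongest promoter peaks of the members, 61 over the 4 libraries, lay mostly close to the TSS, with 39 of 61 summits within 500 bp and a median 205 bp downstream. Summits within 500 bp numbered 4 of 14, 9 of 13, 4 of 5 and 22 of 29 in the 4 libraries, so those of old WT Cre replicate 1 were the most spread. The median fold enrichment of these peaks was 3.76, 4.94, 4.72 and 5.45.

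**Figure D4:**
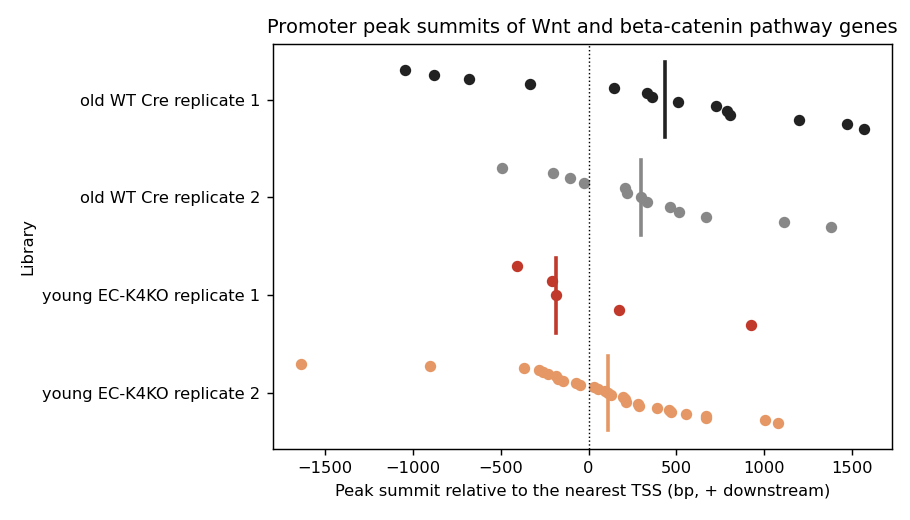
Distance in bp from the nearest TSS of the gene to the summit of each member's strongest promoter peak, by library; each point is 1 gene and the vertical bar is the library's median. Summits of old WT Cre replicate 1 are spread across the window, with 4 of 14 within 500 bp, whereas 22 of 29 in young EC-K4KO replicate 2 are that close.

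Gene body peaks were found at more of the members than of length-matched genes in every library except young EC-K4KO replicate 1. In old WT Cre replicate 1, 24 of 32 members (75.0%) had 1 or more, against 64.8% of length-matched and 50.3% of all genes. For old WT Cre replicate 2, 16 members (50.0%) did, against 48.8% and 35.4%. For young EC-K4KO replicate 1, 11 members (34.4%) did, which was below the 40.7% of length-matched genes and above the 27.8% of all genes. In young EC-K4KO replicate 2, 31 members (96.9%) did, against 84.2% and 74.3%. Since the members are longer than most genes (median 43.0 kb against 17.4 kb), the length-matched share is the closer reference. With a fold enrichment of at least 4, the margin over length-matched genes was -5.00, 5.29, -9.86 and 3.01 points, and with −log10 q of at least 5 it was 0.763, 13.8, -8.25 and 11.4 points, beside 10.2, 1.21, -6.36 and 12.7 points with all peaks. The margin of old WT Cre replicate 1 thus turned with the fold setting, and that of old WT Cre replicate 2 was less than 1 gene with all peaks but larger under both stricter settings.

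By number, the members' bodies held 79, 36, 15 and 211 peaks. Per 100 kb of gene body this was 4.28, 1.95, 0.812 and 11.4 peaks, against 3.98, 1.92, 1.36 and 12.1 in length-matched genes. The members' value was pooled over all their bodies, so long genes weigh most, whereas the matched value was averaged over members. The 2 are therefore not on the same footing, and no direction is read from them. The mean number of members with a body peak was 20 ± 5.66 over the old WT Cre libraries and 21 ± 14.1 over the young EC-K4KO libraries (SD, n = 2), a difference of 1.0 (exact permutation p = 1.0) that turned to -9.0 without young EC-K4KO replicate 2 and to -3.0 without old WT Cre replicate 2, and was 5.0 without old WT Cre replicate 1 and 11 without young EC-K4KO replicate 1. The margin over length-matched genes was 5.70 ± 6.34 and 3.16 ± 13.5 points (difference -2.54, exact permutation p = 1.0). This difference turned to 1.95 points without old WT Cre replicate 1 and to 6.98 points without young EC-K4KO replicate 1, and was -7.02 and -12.1 points without the replicate numbered 2 of either group.

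Both old WT Cre libraries had a body peak at 14 members (43.8%), against 43.0% of length-matched and 28.8% of all genes, and both young EC-K4KO libraries at 11 members (34.4%), against 39.9% and 26.6%. Body peaks in all 4 libraries were found at 7 members (21.9%), namely Fzd6, Lef1, Lrp6, Nkd1, Reck, Tcf7l1 and Tcf7l2, against 28.03% of length-matched and 17.0% of all genes. Lef1 held 8, 5, 1 and 14 body peaks and Tcf7l2 held 10, 9, 2 and 27. Both genes had more body peaks in each old WT Cre library than in young EC-K4KO replicate 1, but fewer than in young EC-K4KO replicate 2. Reck, beside its promoter peaks, held 1, 1, 1 and 7, Nkd1 held 3, 2, 1 and 11, and Fzd6 held 3, 2, 1 and 5.

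Of the 6 feedback inhibitors, 5, 4, 2 and 6 had a body peak (83.3%, 66.7%, 33.3% and 100%), against 72.7%, 53.2%, 43.4% and 89.6% of genes matched to them in length. Of the 7 genes of signal relay and the destruction complex, 4, 4, 0 and 7 did (57.1%, 57.1%, 0% and 100%), against 63.8%, 47.0%, 39.7% and 88.5%. Of all genes, 50.3%, 35.4%, 27.8% and 74.3% did. Axin2 held 3, 1, 0 and 3, and the peaks of the 3 libraries that had any included the shared intronic segment printed above. Rnf43 held 4, 2, 0 and 9 body peaks, Apcdd1 held 4, 0, 0 and 6, and Notum, a short gene, held 0, 1, 0 and 1. Znrf3 was the only feedback inhibitor besides Nkd1 with a body peak in both young EC-K4KO libraries, at 5, 0, 2 and 11. Of the genes of signal relay, Apc held 1, 1, 0 and 9, Gsk3b held 2, 1, 0 and 11, and Ctnnb1 held 0, 0, 0 and 2. Tnfrsf19 differed from them, with 4, 0, 3 and 7. Fzd4, which had a promoter peak in every library, had a body peak in old WT Cre replicate 1 alone. Body peaks in young EC-K4KO replicate 2 alone were found at 6 members (18.8%), namely Ccnd1, Ctnnb1, Dvl2, Fzd7, Myc and Wnt7b, against 13.7% of length-matched and 18.7% of all genes.

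**Figure D5:**
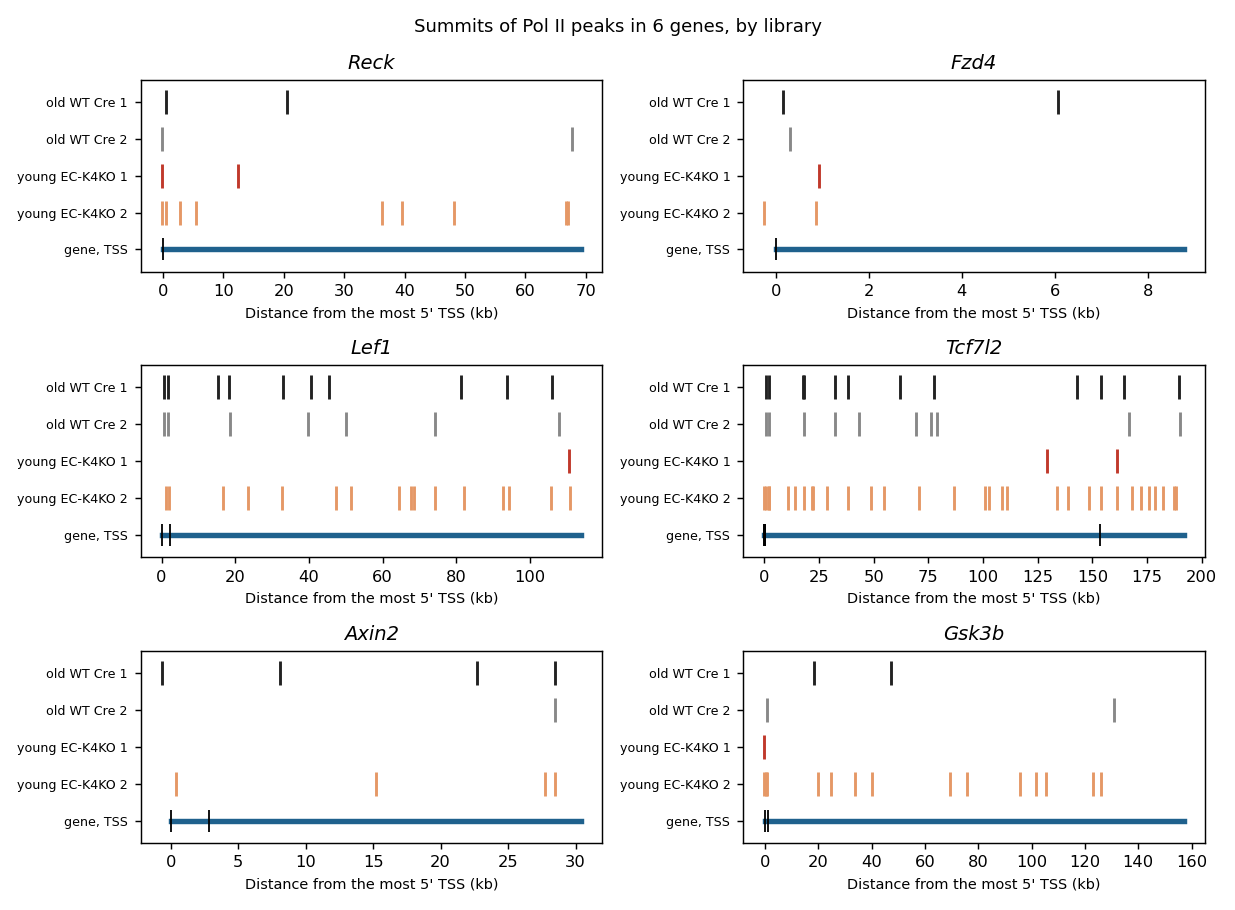
Positions of peak summits in 6 Wnt pathway genes, in kb from the most 5′ TSS, with 1 row per library and the gene and its TSS (black ticks) below. In Lef1 and Tcf7l2, young EC-K4KO replicate 1 has 1 and 2 body peaks, against 14 and 27 in young EC-K4KO replicate 2; in Axin2, summits of 3 libraries line up near the 3′ end.

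The TCF/LEF heptamers CTTTGAT and CTTTGAA were searched on both strands, and other spellings were not. They were in the 300 bases around the most 5′ TSS of 2 of 32 members (6.25%), Ccnd1 and Nkd1, and of 8.16% of all protein-coding genes. In the 200 bp around the summits of promoter peaks, 1 of 17, 0 of 14, 0 of 5 and 3 of 54 member peaks held a heptamer, against 3.32%, 2.72%, 3.91% and 2.79% of promoter peaks of all genes. These were peaks of Reck in old WT Cre replicate 1 and of Dvl3, Axin2 and Notum in young EC-K4KO replicate 2. Around the summits of gene body peaks, the counts were 5 of 79, 0 of 36, 2 of 15 and 8 of 211 member peaks (6.33%, 0%, 13.3% and 3.79%), against 4.55%, 3.92%, 4.59% and 5.34% of body peaks of all genes. In neither zone did the members lie on the same side of all genes in every library. None of the 10 segments shared by 3 libraries held either heptamer.

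Another 94 genes of Wnt signaling, in 6 lists, were read in the same way. A promoter peak was found at 23 (24.5%), 24 (25.5%), 13 (13.8%) and 72 (76.6%) of them, against 26.9%, 27.0%, 10.9% and 70.9% of genes matched to them in length and 25.6%, 24.5%, 10.6% and 67.5% of all genes, and 15 of them had none in any library. Apart from young EC-K4KO replicate 2, these shares were each within a few genes of their references, and no split between the groups is read from them. In old WT Cre replicate 2 the share lay between that of all genes and that of length-matched genes. By list, the counts were 3, 4, 3 and 18 of 24 other ligands and R-spondins, 2, 4, 0 and 10 of 13 other receptors, 4, 2, 1 and 9 of 12 secreted inhibitors, 5, 6, 3 and 15 of 18 cytoplasmic regulators, 7, 4, 3 and 15 of 15 nuclear cofactors of β-catenin, and 2, 4, 3 and 5 of 12 barrier genes downstream of Wnt. Tle4, a Groucho corepressor that binds TCF/LEF factors, was the 1 gene of the 94 with a promoter peak in all 4 libraries, at 5.63-, 6.34-, 4.14- and 5.81-fold. Its summits lay 1025, 611, 360 and 611 bp upstream of the nearest TSS. The shares of the barrier genes, 16.7%, 33.3%, 25.0% and 41.7%, were below those of all genes in old WT Cre replicate 1 and young EC-K4KO replicate 2. They were above those of all genes in old WT Cre replicate 2 and young EC-K4KO replicate 1. Abcb1a, a drug efflux pump of the BBB, had promoter peaks in the old WT Cre pair but in neither young EC-K4KO library, a pattern of 0.787% of all genes. Slc2a1, the glucose transporter of the BBB, had a promoter peak in each replicate numbered 2, and Mfsd2a, a lipid transporter, in old WT Cre replicate 1 and young EC-K4KO replicate 2. Plvap, a marker of leaky vessels, had promoter peaks in old WT Cre replicate 2 and young EC-K4KO replicate 1. Foxf2 had a promoter peak in old WT Cre replicate 2 alone, Slc38a5, an amino acid transporter, in young EC-K4KO replicate 1 alone, and Slc7a5, another amino acid transporter, and Cldn5, a tight junction protein, in young EC-K4KO replicate 2 alone.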

How the data were processed

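The deposited peak tables of 4 Pol II libraries were used. According to the methods, the authors mapped trimmed reads to mm10 (Bowtie2), took out duplicates and called peaks (MACS2); the file headers name MACS 2.2.7.1, a q-value cutoff of 0.01, no control library and the setting that keeps all duplicates. Peaks were called per library. The authors' deposited values are the pileup (a coverage signal), the fold enrichment (a ratio to the local background of that library) and −log10 of the p-value and q-value, none normalized between libraries.

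Peaks were assigned to genes of GENCODE M21 basic, mitochondrial DNA left out, by an overlap of at least 1 bp, with pysam 0.24.0, scipy 1.17.1, pandas 2.3.3 and numpy 2.4.6 under Python 3.11.15. Genes that lie wholly within their promoter windows have no body and were left out of body counts, which leaves 20500 genes. Body density in the matched genes was averaged over members. The overlap step was tested on simulated data. Groups come from the labels and were compared by exact two-sided permutation of the 4 libraries.

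The members and lists were chosen with earlier results of these data known. All members are accounted for; values are given for those with a promoter peak in at least 3 libraries, those in both libraries of 1 group alone (none), 6 feedback inhibitors and Lef1, and, among other Wnt genes, those with a promoter peak in all 4 libraries. Values of further members, the genes named from the barrier and marker lists and the segments printed were chosen after they were seen. Alternatives were a stricter q-value, a minimum fold enrichment, equal list length, other TSS windows, more matched genes and leaving out each library. The most 5′ TSS alone, matching in GC content and a crossed pairing were added after seeing the data.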

Additional observations from a re-analysis of the deposited data

How the results depend on the processing

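Of 93 values recomputed under alternatives, 14 differences changed direction and 20 counts moved by over 1.5 times. The other 59 kept the sign of the difference, at times at several times its size, or a count within 1.5 times. For the difference between groups in members with a gene body peak (1.0), the value was -0.5 with −log10 q of at least 5, -2.5 with lists of equal length, -0.5 with a TSS window of 500 bp and -1.0 with 3000 bp. For the difference in promoter margin over length-matched genes (-3.10 points), it was 2.98, 1.20 with a fold enrichment of at least 4, 0.773 with equal length and 6.51 with 500 bp. Exact permutation p-values under these settings ran from 0.6667 to 1.0. With −log10 q of at least 5, members with a promoter peak in both old WT Cre, in both young EC-K4KO and in all 4 libraries numbered 2, 3 and 0, and those with a body peak in both young EC-K4KO libraries 2. With a fold of at least 4, the promoter counts were 3 (both old WT Cre) and 0 (all 4), and 8 and 5 had a body peak in both old WT Cre and both young EC-K4KO libraries. With equal length these were 3, 0 and, for young EC-K4KO bodies, 7. Members with a promoter peak in all 4 libraries numbered 1 with a window of 500 bp and 4 with 3000 bp. The shares of all genes under these settings are not given for sets of libraries, so these counts are not read as a result about the members. The cause of these changes was not tested, though stricter settings leave fewer peaks.

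Leaving out each library, the difference in members with a promoter peak ranged from -8.5 to 15.5 and that with a body peak from -9.0 to 11, the promoter margin from -10.4 to 4.20 points and the body margin from -12.1 to 6.98 points. The lone library of a group then has no spread of its own. Counts of members in all remaining libraries ranged from 7 to 14 (promoter, old WT Cre), 5 to 29 (promoter, young EC-K4KO), 2 to 7 (promoter, all), 14 to 24 (body, old WT Cre) and 11 to 31 (body, young EC-K4KO). The labels give same-numbered libraries only a number in common, and whether they shared a batch is not known. Their deviations from the group means correlated across 21851 genes by 0.0277 for promoter peaks and -0.309 for the log2 of body peaks plus 1. Replicate 1 had the longer list in old WT Cre and the shorter in young EC-K4KO, so these correlations cannot show whether a batch was shared. With the number as a replicate block, the differences were 3.5, 1.0, -3.10 and -2.54, each with an exact permutation p of 1.0, where 0.5 is the smallest possible. With 1 library of each group per block, a block, crossed or not, cannot change these mean differences, and no call was possible with or without it. With 2 libraries per group, of which 1 had 235591 peaks, differences between the groups were not resolved.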

Other observations

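The 3000 bp downstream of the 3′ end, where Pol II is known to slow during termination, were also examined. A peak was found there at 2 members in old WT Cre replicate 1 (Lrp6 and Tcf7l2), 5 in old WT Cre replicate 2 (Dvl2, Dvl3, Fzd6, Lrp6 and Wnt7b), 3 in young EC-K4KO replicate 1 (Tcf7l1, Tnfrsf19 and Znrf3) and 12 in young EC-K4KO replicate 2. The members' shares were 6.25%, 15.6%, 9.38% and 37.5%, beside 12.3%, 6.61%, 3.63% and 32.4% of length-matched genes and 11.2%, 5.95%, 3.84% and 31.3% of all genes. Lrp6, which had no promoter peak in any library, was the only member with a peak in this flank in both old WT Cre libraries. These values were examined after the other results were seen, and no test was made.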
